A study of Homo sapiens with 6 samples.

Results

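HMGN1 to HMGN5 and NAP1L1 to NAP1L5 encode 2 families of proteins that work on nucleosomes, the HMGN nucleosome-binding proteins and the NAP1-like histone chaperones. The 10 genes were taken as every probe set, the unit of measurement of an Affymetrix array, whose only gene symbol was one of theirs. This gave 25 of the 54613 probe sets that were not controls, and 10 of the 19775 genes with a probe set of their own. No probe set (0) carried a member's symbol together with another gene's. The families were chosen with this comparison already known, in which NAP1L3 and HMGN5 ranked 6 and 10 among the falls of all genes, so the values of all 10 genes are a description of these arrays, without a test.

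RNA was compared between MDA-MB-231 cells with a stable knockdown of ATAD3A and cells with a control hairpin. MDA-MB-231 is an invasive breast cancer cell line that lacks estrogen and progesterone receptors, and ATAD3A is an ATPase of the inner mitochondrial membrane. The shATAD3A group (3 arrays) had received a pLKO.1 lentiviral vector with a short hairpin RNA against ATAD3A, and the shGFP group (3 arrays) the same kind of vector with a hairpin against GFP, a jellyfish protein that the cells lack. Both groups had been selected for 2 weeks in puromycin at 1.0 µg/ml and were used at passage 2, so both carried an integrated vector and puromycin resistance. The labels name a single hairpin group for ATAD3A, and do not say whether the arrays of a group came from separate cultures. The p-values therefore speak only to the scatter among these 6 arrays, part or all of which may be technical, and the number of arrays limits the precision.

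HMGN proteins bind the nucleosome core particle without preference for a DNA sequence, compete with linker histone H1 and loosen compact chromatin. HMGN1 and HMGN2 are the abundant founding members, HMGN3 is known from endocrine and nervous tissue, HMGN4 comes from an intronless gene that arose from HMGN2, and HMGN5 is an X-linked member with a long acidic tail. NAP1-like proteins carry H2A–H2B histone dimers and help to assemble and exchange them. NAP1L1 and NAP1L4 are made in nearly all cells, while NAP1L2, NAP1L3 and NAP1L5 are known mainly from brain.

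The stretches of DNA just before the start sites of the 3 members that differed by more than 2-fold between the groups are shown first. Each is the 100 bases upstream of the gene's RefSeq start site on build GRCh38.p14, read 5′ to 3′ on the gene's own strand, with every CG dinucleotide in capitals because methylation of promoters falls on these positions. The HMGN5 window lies at chrX:81201914-81202013, the NAP1L3 window at chrX:93673579-93673678 and the NAP1L5 window at chr4:88697830-88697929, all on the minus strand.
HMGN5: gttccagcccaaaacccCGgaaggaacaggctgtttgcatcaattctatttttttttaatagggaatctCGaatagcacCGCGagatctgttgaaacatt
NAP1L3: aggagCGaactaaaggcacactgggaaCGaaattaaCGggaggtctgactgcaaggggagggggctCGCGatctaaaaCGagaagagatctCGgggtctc
NAP1L5: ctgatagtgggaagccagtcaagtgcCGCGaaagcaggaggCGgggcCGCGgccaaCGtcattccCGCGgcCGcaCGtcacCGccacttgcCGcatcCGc
The HMGN5 window held 4 CG dinucleotides, and 48.9% of the 35116 RefSeq windows of this length held as many or fewer. The NAP1L3 window held 7 (61.2% of windows) and the NAP1L5 window 13 (87.2% of windows), against a median of 5. The windows thus ranged from a middling CG content in HMGN5 and NAP1L3 to a dense one in NAP1L5. Their overall G and C content was 42.0% in HMGN5, 55.0% in NAP1L3 and 69.0% in NAP1L5. Methylation was not measured.

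Short motifs were searched on both strands: GGGCGG (the GC box, in 31.3% of all windows), CCAAT (18.1%) and TATAAA (4.99%). None of the 3 printed windows held any of these letters. The HMGN1 and HMGN2 windows held both GGGCGG and CCAAT, HMGN3 held CCAAT, and HMGN4 and NAP1L1 held GGGCGG. NAP1L4 has 4 windows in the table, and NAP1L2 held no motif. The 10 genes had 13 windows, and no window held TATAAA. These are matches of letters and not evidence of binding.

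The targeted gene was read first as a check of the labels. ATAD3A, measured by 1 probe set of its own, had 7.41, 7.03 and 7.39 in shATAD3A arrays, against 7.73, 7.78 and 7.80 in shGFP arrays, on the log2 scale used throughout. All shATAD3A arrays lay below all shGFP arrays, and ATAD3A fell by 29.0% (log2 difference -0.49 ± 0.107 SE, limma adjusted p = 0.0220, threshold 0.05). The call was lost when any 1 of the shGFP arrays was left out, with limma adjusted p of 0.0596, 0.0687 and 0.0748, while the difference stayed between -0.56 and -0.37 with any 1 array left out. The probe set is of the x_at type, whose probes may bind related transcripts.

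Arrays resembled each other more within a group (Pearson r of 0.9986 to 0.9991 across probe sets) than between groups (0.989 to 0.9898). Of 10 markers of this kind of line, 9 lay above the low mode in both groups, which is the cluster of dim values below 4.77 where probe sets without a clear transcript lie. SPARC was the exception. Of these markers 5 were lower and 3 higher. The epithelial ones were higher by log2 differences of 1.98 (EPCAM), 1.42 (KRT8) and 1.00 (KRT18), and SNAI2, MSN, CD44, AXL and CAV1 were lower, with differences of -0.65 to -0.25. The summed level of the list was 120.7 to 121.0 in shATAD3A arrays, against 118.3 to 118.4 in shGFP arrays. ESR1 and PGR were in the low mode and ERBB2 above it. Of the neuronal markers 1 of 6 lay above it in each group (TUBB3), of the fibroblast markers 1 of 6 (COL1A1), and of the leukocyte markers 0 of the 4 measured. The summed log2 level of the neuronal list was 27.4 to 28.2 in shATAD3A arrays, against 25.7 to 26.1 in shGFP arrays, and 2 of its 6 genes were called higher. The fibroblast list summed to 24.1 to 24.7 in shATAD3A arrays, against 22.5 to 23.0 in shGFP arrays, and the leukocyte list to 10.2 to 10.5 in shATAD3A arrays, against 11.6 to 12.3 in shGFP arrays. Single genes carried most of the neuronal and leukocyte shifts, SNAP25 with a log2 difference of 1.70 and CD14 with -1.60, both in the low mode in both groups. The part of such shifts in the results was not tested. In bulk RNA, fewer cells that express a gene and less RNA per cell cannot be told apart.

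Across the 25 probe sets, 7 were lower and 3 were higher in shATAD3A arrays at a limma adjusted p below 0.05, and 15 were not called. Among all probe sets 10.5% were lower and 12.0% were higher. Since the members were picked from this comparison, the counts are given as a description. The HMGN family held 6 of the lower probe sets out of 9, with a median log2 difference of -0.32, and 0 higher ones. The NAP1L family held 1 lower and 3 higher out of 16, with a median of -0.0026, beside -0.0053 for all probe sets. Counted by gene, each by its brightest probe set, 4 of the 10 genes were lower and 1 was higher, beside 13.9% lower and 19.7% higher among all genes. The mean over all arrays lay in the low mode for 5 of the 25 probe sets, and these 5 were not called. Among all 54613 probe sets it lay there for 32837, so the shares over all probe sets include more dim ones.

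**Figure D1:**
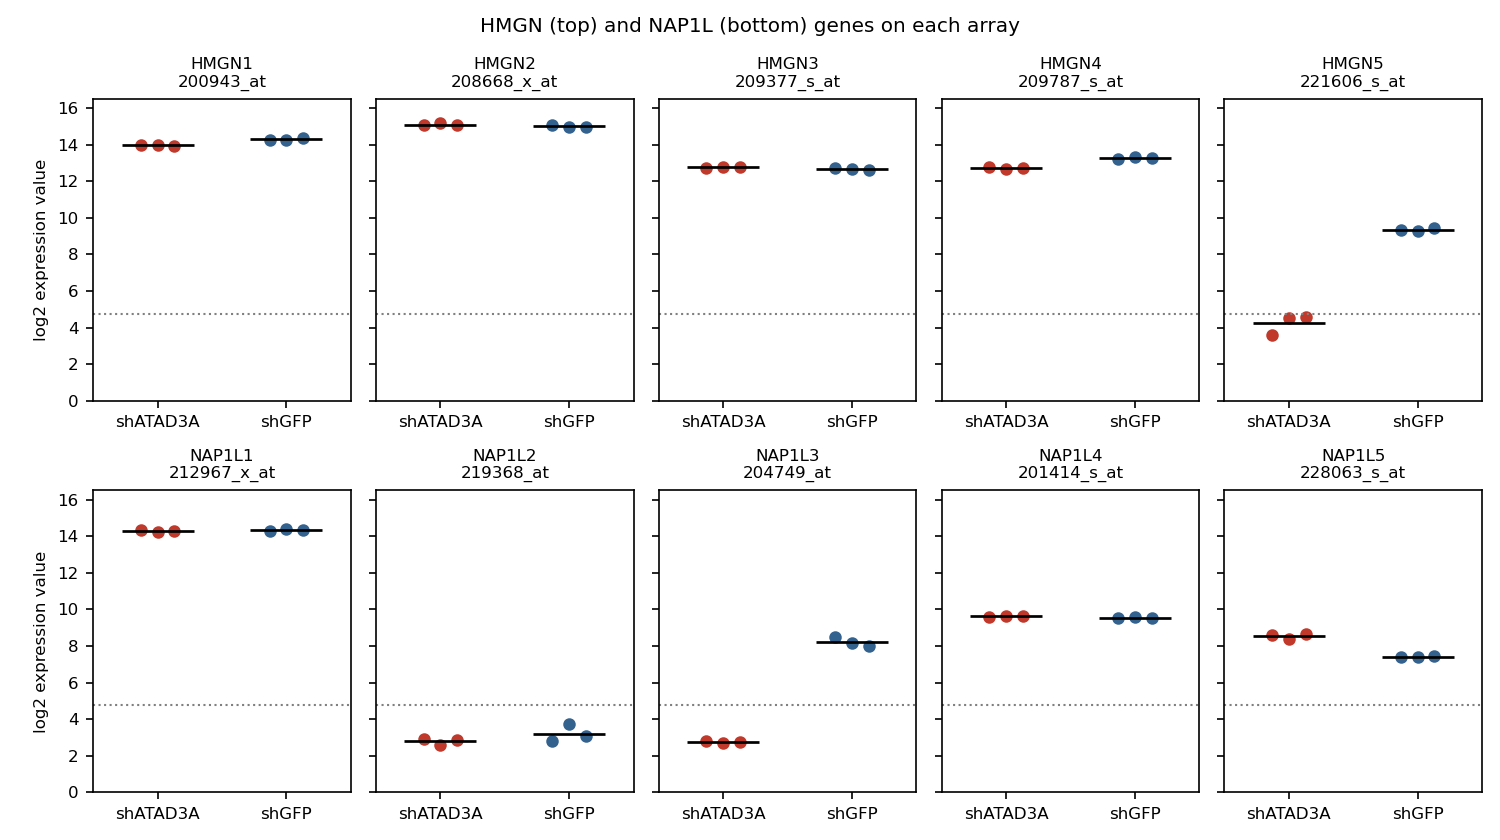
Log2 expression value of the brightest probe set of each of the 10 genes on every array, with shATAD3A arrays (3) left of shGFP arrays (3) and a bar at each group mean. HMGN5 and NAP1L3 lie in the low mode, below 4.77, in the shATAD3A arrays alone, and NAP1L2 lies there in both groups.

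HMGN5, which decompacts chromatin through its acidic tail, had the largest difference of the HMGN family. Its transcript had 3.60, 4.54 and 4.60 in shATAD3A arrays, against 9.31, 9.31 and 9.44 in shGFP arrays (probe set 221606_s_at). The mean was 4.24 ± 0.56 in shATAD3A arrays and 9.35 ± 0.076 in shGFP arrays (SD, n = 3 each), a log2 difference of -5.11 ± 0.275 (SE, 95% interval -5.79 to -4.43). The groups were far apart, and all 3 shATAD3A arrays lay in the low mode, where the size of a fall is no longer measured precisely. A second HMGN5 probe set, 221238_at, lay in the low mode in both groups, with 2.49, 2.62 and 2.38 in shATAD3A arrays, against 2.47, 2.48 and 2.53 in shGFP arrays. A fall could not have been seen there, so it gives no second reading.

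HMGN4 was lower by each of its 3 probe sets. The brightest, 209787_s_at, had 12.78, 12.68 and 12.70 in shATAD3A arrays, against 13.21, 13.34 and 13.27 in shGFP arrays. It fell by 32.0% (log2 difference -0.56 ± 0.045 SE), and the groups did not overlap. The other two, 202579_x_at and 209786_at, fell by 30.0% (-0.51 ± 0.067 SE) and fell by 40.6% (-0.75 ± 0.052 SE). HMGN4 closely resembles HMGN2 in sequence, and the s_at and x_at probe sets may bind both.

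HMGN1, whose gene lies on chromosome 21, was slightly lower by both of its probe sets. The brighter one, 200943_at, had 13.96, 13.99 and 13.95 in shATAD3A arrays, against 14.24, 14.28 and 14.35 in shGFP arrays. The groups were separated by a small step, and the transcript fell by 19.9% (log2 difference -0.32 ± 0.037 SE). The other, 200944_s_at, fell by 18.6% (-0.30 ± 0.026 SE).

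HMGN2 and HMGN3 were not called. The only HMGN2 probe set, 208668_x_at, is of the x_at type, whose probes may bind related transcripts. HMGN2 had 15.07, 15.18 and 15.05 in shATAD3A arrays, against 15.06, 14.97 and 14.98 in shGFP arrays, a log2 difference of 0.10 ± 0.047 (SE, 95% interval -0.02 to 0.21). The groups overlapped, and the interval leaves room for a small rise. HMGN3, which is known to act with the thyroid hormone receptor, had 12.73, 12.77 and 12.78 in shATAD3A arrays, against 12.73, 12.68 and 12.62 in shGFP arrays. The lowest shATAD3A array lay just above the highest shGFP array, and the difference was 0.08 ± 0.036 (SE, 95% interval -0.01 to 0.17).

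NAP1L3, a single-exon X-linked gene known from neurons, was the NAP1L gene that fell furthest. Its only probe set, 204749_at, had 2.80, 2.71 and 2.74 in shATAD3A arrays, against 8.47, 8.16 and 8.0 in shGFP arrays. The mean was 2.75 ± 0.045 in shATAD3A arrays and 8.21 ± 0.24 in shGFP arrays (SD, n = 3 each), a log2 difference of -5.46 ± 0.120 (SE, 95% interval -5.75 to -5.16). The shATAD3A arrays sat at the floor of the scale, so the size of the fall depends on how low the scale of the array reaches.

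NAP1L5, an imprinted gene that is expressed from the paternal copy, was the member that moved the other way. Its brighter probe set, 228063_s_at, had 8.59, 8.38 and 8.63 in shATAD3A arrays, against 7.40, 7.40 and 7.44 in shGFP arrays. Every shATAD3A array was above every shGFP array, and the log2 difference of 1.12 ± 0.071 (SE) is a 2.17-fold rise. The dimmer one, 228062_at, had 7.93, 7.98 and 7.72 in shATAD3A arrays, against 6.48, 6.39 and 6.11 in shGFP arrays. It gave a larger difference, 1.55 ± 0.117 (SE), or 2.93-fold. NAP1L5 lies inside the gene HERC3, which has no probe set of its own symbol alone here and was not analysed.

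NAP1L1, the main NAP1-like protein of dividing cells, was measured by 7 probe sets, and 6 of them were not called. The brightest, 212967_x_at, had 14.32, 14.23 and 14.30 in shATAD3A arrays, against 14.29, 14.38 and 14.34 in shGFP arrays. The groups overlapped, with a log2 difference of -0.05 ± 0.039 (SE, 95% interval -0.15 to 0.04). The other 5 had differences from -0.07 to 0.08. The seventh, 1556121_at, is the dimmest of the gene, and it had 10.25, 10.06 and 10.19 in shATAD3A arrays, against 9.68, 9.62 and 9.69 in shGFP arrays. It was higher by 0.50 ± 0.055 (SE, 95% interval 0.37 to 0.64), or 1.42-fold, so the probe sets of this gene disagreed. Which transcript it reads was not tested.

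NAP1L4, the other widely made chaperone, was not called by any of its 5 probe sets. Its brightest, 201414_s_at, had 9.58, 9.64 and 9.66 in shATAD3A arrays, against 9.55, 9.56 and 9.54 in shGFP arrays. All shATAD3A arrays lay above all shGFP arrays by a narrow margin, with a difference of 0.08 ± 0.031 (SE, 95% interval 0.00 to 0.15). The other 4 probe sets had differences from -0.01 to 0.03, and 3 of them lay in the low mode. NAP1L2, which in the mouse restrains the growth of neural precursors, had 2.89, 2.60 and 2.86 in shATAD3A arrays, against 2.80, 3.73 and 3.08 in shGFP arrays. It lay in the low mode on every array, and the difference of -0.42 ± 0.243 (SE, 95% interval -1.02 to 0.18) was not called.

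**Figure D2:**
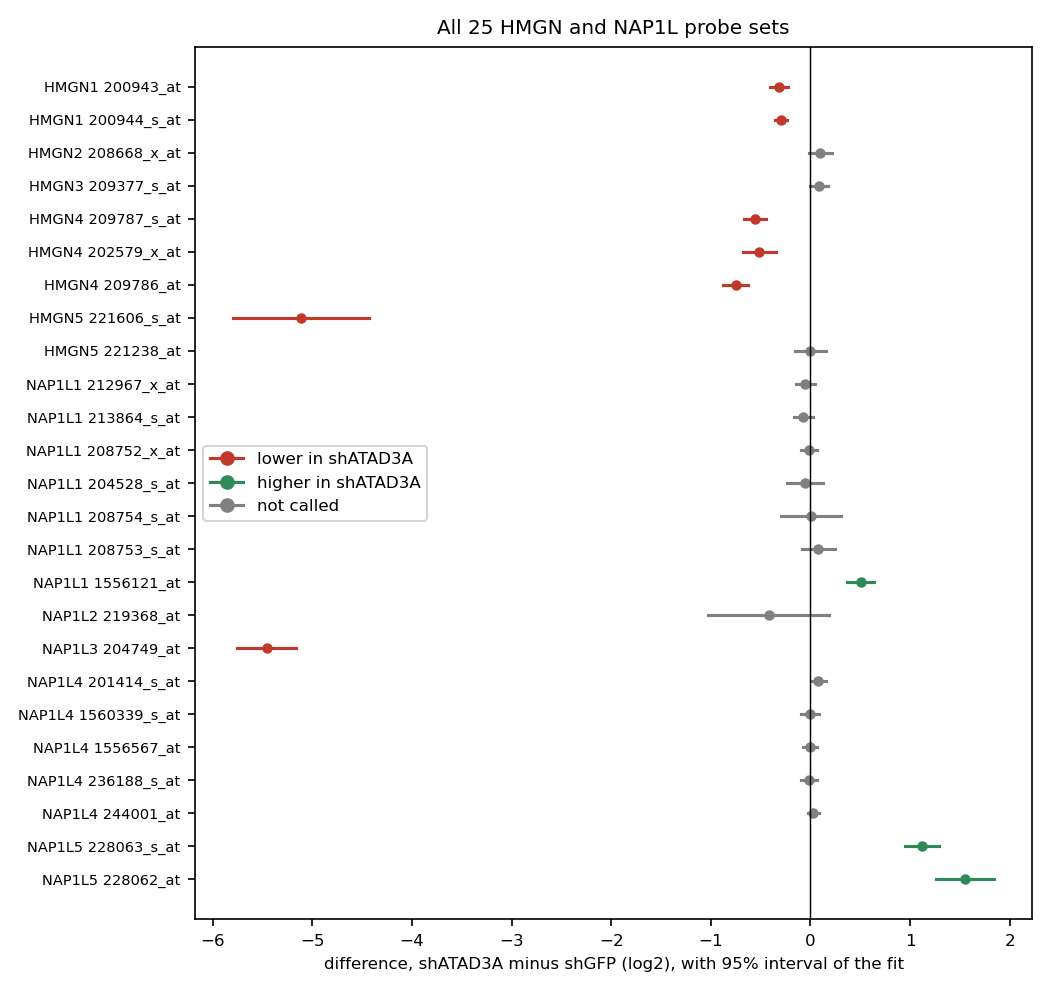
Log2 difference of shATAD3A minus shGFP for each of the 25 probe sets, with its 95% interval. The HMGN5 probe set at -5.11 and the NAP1L3 probe set at -5.46 stand apart, the HMGN1 and HMGN4 probe sets lie between -0.75 and -0.30, and the NAP1L5 probe sets lie at 1.12 and 1.55.

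HMGN5, NAP1L3 and NAP1L2 all lie on the X chromosome. Of 330 X-linked genes above the low mode, 217 (65.8%) were lower and 53 (16.1%) were higher, with a median log2 difference of -0.52. Over all 10194 genes above the low mode with a known chromosome, 25.4% were lower and 36.5% higher, with a median of 0.07. Chromosome 21, which carries HMGN1, had a median of -0.29, and chromosome 6, which carries HMGN3 and HMGN4, had a median of -0.21. Chromosome 12, which carries NAP1L1, had a median of 0.35, with 60.4% of its genes higher, and chromosome 1, which carries HMGN2, had a median of 0.13. The counts include the members above the low mode, so the X-linked ones hold HMGN5 and NAP1L3 but not NAP1L2.

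Each member was set beside its 20 nearest genes above the low mode, 10 on each side. All 20 neighbours of HMGN5 were lower, with a median of -0.97, and HMGN5 itself lay at -4.14 relative to that median. All 20 neighbours of NAP1L3 were lower too, with a median of -0.83, and NAP1L3 lay at -4.62 relative to them. These sets overlap, since HMGN5 and NAP1L3 are 3 places apart in the order of the measured X-linked genes (181 and 184 of 330), and each is among the other's neighbours. Among the neighbours of HMGN1, 11 of 20 were lower, and their median of -0.24 left HMGN1 at -0.08. Among those of HMGN4, 13 of 20 were lower, and their median of -0.35 left it at -0.21 by its brightest probe set. The other HMGN4 probe sets, 202579_x_at and 209786_at, had differences of -0.51 and -0.75 before that median was taken off. HMGN1 thus lay near the genes around it and HMGN4 somewhat below them, whereas HMGN5 and NAP1L3 lay far below theirs. NAP1L5 stood 1.01 above neighbours with a median of 0.11. HMGN2 lay among genes with a median of 0.52, of which 14 of 20 were higher, and stood at -0.42 relative to them. HMGN3, NAP1L1 and NAP1L4 each stood within 0.10 of their neighbours' median. Of the neighbours of NAP1L2, 17 of 20 were lower, with a median of -0.90. NAP1L2 stood 0.475 above that median, but it lay in the low mode on every array, where there is little room for a fall to be seen. DNA copy number was not analysed here, and its part in these runs of neighbouring genes was not tested.

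**Figure D3:**
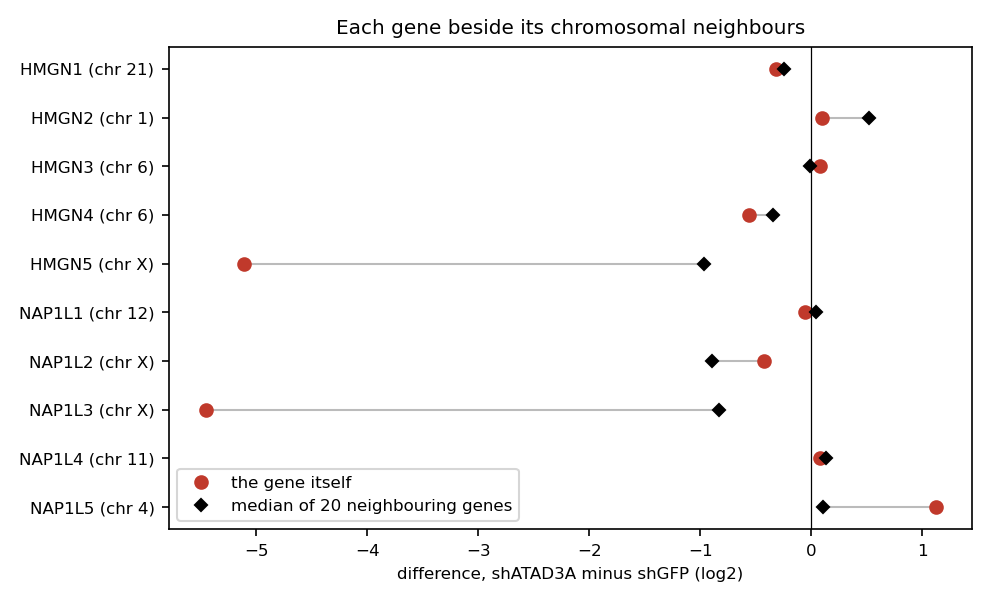
Log2 difference of shATAD3A minus shGFP for each of the 10 genes (red circle) beside the median of its 20 nearest genes above the low mode (black diamond). HMGN5 and NAP1L3 lie more than 4 log2 units below their neighbours' medians of -0.97 and -0.83, and NAP1L5 lies 1.01 above its own.

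**Figure D4:**
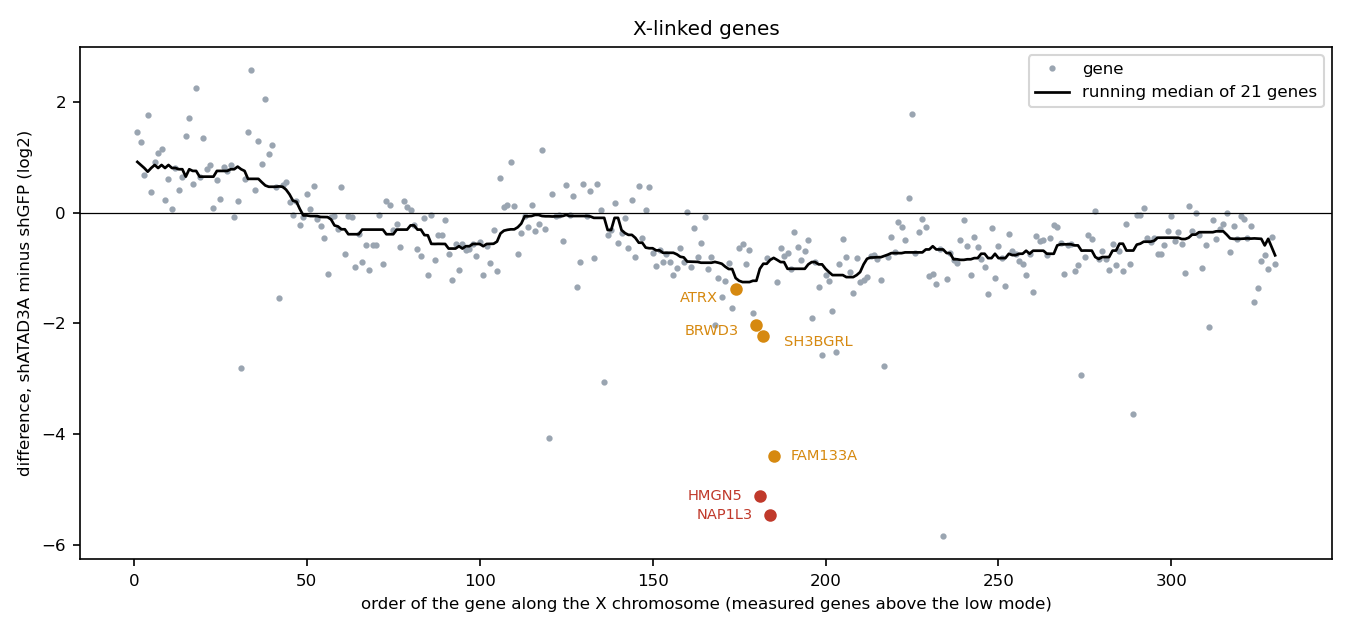
Log2 difference of the 330 X-linked genes above the low mode (grey points) against their order along the chromosome, with a running median over 21 genes (black line). HMGN5 at place 181 and NAP1L3 at place 184 (red) lie below their neighbours FAM133A, SH3BGRL, BRWD3 and ATRX (orange), and the running median there is below 0.

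Both large falls stood beside a gene that starts on the opposite strand close by. The start sites of HMGN5 and SH3BGRL, which encodes a small thioredoxin-fold protein, are 189 bases apart, so the printed HMGN5 window lies between them. SH3BGRL had 9.31, 9.40 and 9.55 in shATAD3A arrays, against 11.57, 11.68 and 11.70 in shGFP arrays, a log2 difference of -2.23 ± 0.072 (SE, limma adjusted p = 7.27e-06). Its other probe set gave -1.91. SH3BGRL thus fell by less than HMGN5 and stayed well above the low mode. The start sites of NAP1L3 and FAM133A are 628 bases apart. FAM133A had 5.95, 6.02 and 6.24 in shATAD3A arrays, against 10.46, 10.46 and 10.49 in shGFP arrays, a difference of -4.40 ± 0.077 (SE, limma adjusted p = 1.16e-06), and its other probe set gave -5.03. FAM133A stayed above the low mode in shATAD3A arrays by its brighter probe set, whereas NAP1L3 lay in it, so the sizes of these falls cannot be ranked.

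For comparison, 1226 other pairs of genes with opposed start sites within 1000 bases were measured, a background chosen after the values were seen. In these pairs 6 genes fell by 2 log2 units or more (differences of -2 or below), and of their partners 3 were lower, 0 were higher and 3 were not called, with a median of -0.63. None of these 6 partners (0) had a difference of -2 or below. The pairs were not filtered on level, and a partner in the low mode would have had little room for a fall to be seen. With so few genes that fell this far, the comparison is a description.

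Of the other near genes, those above the low mode were lower too. On the other side of HMGN5, BRWD3, a bromodomain protein, fell by 2.04 (log2 difference -2.04 ± 0.066 SE, limma adjusted p = 7.54e-06), while TBX22, TENT5D, POU3F4 and CYLC1 lay in the low mode in both groups. Beside NAP1L3, DIAPH2, a formin of the actin skeleton, fell by 1.25 (log2 difference -1.25 ± 0.090 SE, limma adjusted p = 0.000134). CPXCR1, PABPC5, PCDH11X and RPA4 lay in the low mode in both groups. Those 8 genes had log2 differences from -0.09 to 0.03 and were not called. Their mean levels of 2.22 to 3.66 in shGFP arrays left little room for a fall to be seen.

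The genes whose profile over the 6 arrays was most like that of NAP1L3 were CST1, SLCO4A1, PDE1C, TNFSF15 and TMEM163. Likeness was the Euclidean distance between log2 profiles centred on their means, and it ran from 0.293 for CST1 to 0.619 for TMEM163. Those most like HMGN5 were FAT3 at 0.415, PDE1C, TNFSF15, KCNK1 and HLA-DRB4 at 0.852. PDE1C and TNFSF15 stood in both sets. Over 2 groups of 3 arrays this measure mostly finds genes with a fall of the same size.

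The genes that work beside these families were counted by the brightest probe set per gene, over 6 lists. Of 107 genes listed, 102 were measured, of which 21 were lower, 28 higher and 53 not called, with a median log2 difference of 0.01, beside -0.0008 over all genes. The shares of lower and higher genes among all 19775 are the 13.9% and 19.7% given above. Dim genes are rarer in the lists, with 16 of the 102 in the low mode, against 48.4% of all genes. Over all genes above the low mode with a known chromosome, 25.4% were lower and 36.5% higher. When s_at and x_at probe sets were left out, the number of higher listed genes was 10. The calls of HMG20B, CHAF1A, H2AJ and SMARCA4 below were among those lost, and their remaining probe sets lay in the low mode in both groups.

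The NAP superfamily relatives come closest to the members. Of 7 genes 3 were lower, 0 higher and 4 not called, with a median of -0.06. TSPYL5, known as a suppressor of p53 in breast cancer cells, had 6.20, 5.79 and 6.34 in shATAD3A arrays, against 9.36, 9.32 and 9.46 in shGFP arrays. It fell by 3.27 ± 0.142 (SE, limma adjusted p = 2.06e-05), while its 20 neighbours had a median of 0.16. TSPYL4 fell by 0.37 ± 0.046 (SE, limma adjusted p = 0.00132). The third, TSPYL1, lost its call without shGFP replicate 2 or 3 (limma adjusted p = 0.0501 and 0.0515).

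Among 19 HMG-box and AT-hook proteins 6 were lower and 6 higher, with a median of -0.01. TOX2 fell by 2.09 ± 0.075 (SE, limma adjusted p = 1.02e-05) and HMGA1, an AT-hook protein of chromatin architecture, by 1.07 ± 0.047 (limma adjusted p = 2.10e-05). Their neighbours had medians of 0.01 and -0.41. TOX, a paralog of TOX2, rose by 2.29 ± 0.096 (SE, limma adjusted p = 1.87e-05), though a dimmer probe set for it was within the low mode on both sides. HMG20B, a subunit of the LSD1 complex, rose by 0.78 ± 0.054 (SE, limma adjusted p = 0.000114), beside a median of 0.52 for its neighbours.

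Of 33 histone chaperones of other families 3 were lower, 8 higher and 22 not called, with a median of 0.02. ATRX, an X-linked remodeller that places histone H3.3 with DAXX, fell by 1.38 ± 0.042 (SE, limma adjusted p = 5.88e-06), among neighbours with a median of -1.10. DEK fell by 0.83 ± 0.059 (SE, limma adjusted p = 0.000122), among neighbours with a median of -0.30. CHAF1A, the large subunit of the CAF-1 complex, rose by 0.63 ± 0.067 (SE, limma adjusted p = 0.000674), and its neighbours had a median of 0.47. CDAN1 rose by 0.53 ± 0.155 (SE, limma adjusted p = 0.0427), a call that was lost without either of shATAD3A replicates 1 and 3 or shGFP replicates 1 and 2 (limma adjusted p of 0.0946 to 0.134).

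Linker histones, which compete with HMGN proteins for nucleosomes, were mostly dim, with 7 of the 9 measured genes in the low mode. H1-2 fell by 0.86 ± 0.074 (SE, limma adjusted p = 0.000281), among neighbours with a median of -0.32. H1-4 fell by 0.74 ± 0.122 (SE, limma adjusted p = 0.00424), with values barely above the low mode in shGFP arrays. Its neighbours had a median of -0.42. H1-10 rose by 0.37 ± 0.056 (SE, limma adjusted p = 0.00281). Transcripts of replication-dependent histones, H1-2 and H1-4 among them, largely lack poly(A) tails, which limits what labelling from the 3′ end can read of them.

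Of 8 measured core histone variants 1 was lower and 4 were higher, with a median of 0.17. H2AZ2 fell by 0.86 ± 0.051 (SE, limma adjusted p = 6.21e-05), among neighbours with a median of -0.36. H2AJ rose by 0.72 ± 0.089 (SE, limma adjusted p = 0.00120) and H2AX by 0.44 ± 0.043 (limma adjusted p = 0.000453). Their neighbours had medians of 0.47 and 0.12. Of 27 remodelling enzymes and partners 6 were lower and 9 higher, with a median of 0.11. SMARCA1, the X-linked ISWI ATPase, fell by 1.43 ± 0.028 (SE, limma adjusted p = 1.69e-06), among neighbours with a median of -0.64. SMARCA4, the ATPase of the BAF complex, fell by 0.69 ± 0.041 (SE, limma adjusted p = 6.08e-05). SMARCD1 rose by 0.79 ± 0.103 (SE, limma adjusted p = 0.00154) and CHD7 by 0.50 ± 0.092 (limma adjusted p = 0.00699). Their neighbours had medians of 0.42 and 0.01.

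**Figure D5:**
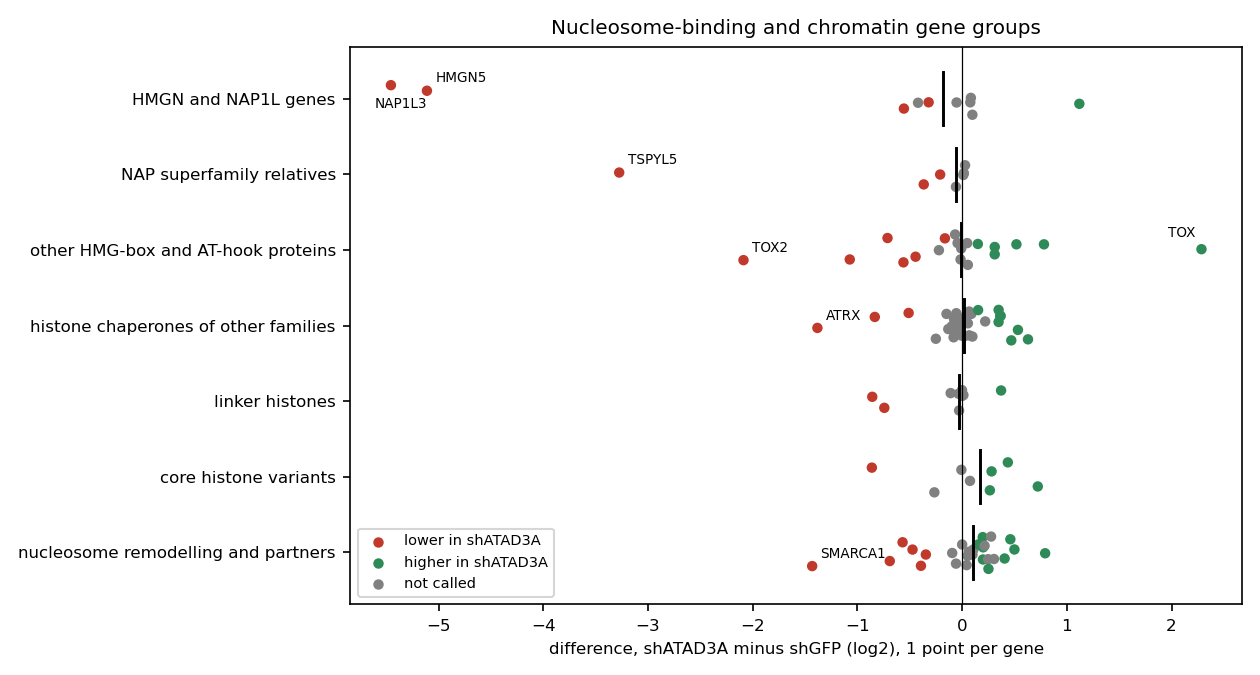
Log2 difference of shATAD3A minus shGFP by gene, with the 10 HMGN and NAP1L genes in the top row, the 6 other lists under it, a bar at each median and colour for the call. The medians of the 6 lists lie between -0.06 and 0.17, and among their genes TSPYL5 at -3.27 and TOX at 2.29 lie farthest from 0.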

How the data were processed

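Values were the log2 expression values of the series matrix, as deposited. The log2 scale was read from their range. The summary method and normalization are not given in the sources used here, and Partek is named per the submitters' processing notes. RNA (250 ng) was labelled with biotin per the labels' protocols. Of 54675 probe sets 62 controls were left out. Symbols came from the 2016 platform annotation and were checked against GRCh38.p14 RefSeq tables (0 updated), from which promoter windows were also read. Array medians were 3.16 to 3.23.

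shATAD3A (3 arrays) was compared with shGFP (3 arrays) by limma 3.58.1 in R 4.3.3 (two-sided, no covariates, Benjamini-Hochberg over all probe sets or all genes, threshold 0.05). Members were fitted per probe set, and listed genes by the brightest probe set. The fit was tested on simulated data. The members, gene lists and naming rules were chosen with earlier results of these data known. The rule named all members, up to 2 rises and 2 falls per list, 5 similar genes and 3 neighbours on either side. The low mode boundary (4.77, with 48.4% of genes below it) was chosen after the values were seen. Same-numbered replicates did not deviate together (r of -0.213, -0.106 and 0.038), so the numbers were not used as pairs.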

Additional observations from a re-analysis of the deposited data

How the results depend on the processing

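Alternatives changed the normalization, the filter on dim probe sets, the variance prior, array weights, the threshold, the probe set per gene, and left out each array. The changes of threshold and of probe set per gene were not applied to single member probe sets. Without s_at probe sets, HMGN5 would be read only by 221238_at, in the low mode in both groups. Under the other alternatives the 25 member probe sets gave 296 values, of which 296 moved by less than 1 SD and 0 changed their call. Most of these values could not have moved by 1 SD, so that count says little. The variance prior, the filter and the replicate number as a block leave a difference unchanged, and leaving out 1 array cannot shift it that far. Only the normalizations and array weights could have done so. None of the called differences (0) changed sign. Some uncalled differences near 0 did, such as NAP1L1 204528_s_at, at 0.03 without shATAD3A replicate 2 against -0.05 over all arrays. HMGN5 ranged from -5.29 to -4.79 and NAP1L3 from -5.56 to -5.33. With the median of the 20 neighbours removed, an alternative chosen after seeing the data, HMGN5 stood at -4.14 and NAP1L3 at -4.62. ATAD3A ranged from -0.56 to -0.37 with 1 array left out, and lost its call without any 1 shGFP array. Of the listed chromatin genes 28 were higher, 23 to 26 with 1 array left out, and 10 without s_at and x_at probe sets. There 9 of the 28 kept their call, 7 had no probe set left and 12 lost it, among them MACROH2A1, which turned to -0.54 (limma adjusted p = 9.93e-05). With the replicate number as a block, 21 were lower and 21 higher, the member counts stayed at 7 lower and 3 higher, and 7 higher calls (CDAN1, HMGB1, ANP32E, SMARCC2, INO80, BAZ1A and RSF1) and 1 lower call (TSPYL1) were lost, with limma adjusted p of 0.0505 to 0.109. Levels in the low mode bound how precisely the falls of HMGN5 and NAP1L3 can be sized.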

Other observations

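HMGA2, an AT-hook protein of embryonic and tumour cells, was read differently by its probe sets. The brightest was lower in shATAD3A arrays by a log2 difference of -0.71 (limma adjusted p = 9.2e-05). The dimmer 1558682_at and 1558683_a_at were higher, by 0.78 and 0.93 (limma adjusted p = 0.00204 and 0.0113). Which HMGA2 transcripts these probe sets read was not tested.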
